A study of Mus musculus with 20 samples.

Results

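The genes described here are 10 that regulatory T (Treg) cells are known for, namely Foxp3, Il2ra, Ctla4, Ikzf2, Il10, Tnfrsf18, Tnfrsf4, Tigit, Icos and Gata3, out of 35204 genes in the count table. They were chosen by name, and the study itself picked Foxp3 and Il2ra out of these samples, so that the direction of those 2 genes here is not independent of that choice. Pieces of terminal ileum from 20 female C57BL/6 mice, aged 7 weeks when the diets began, were frozen whole and their poly-A RNA was sequenced. For 3 weeks the mice ate either an amino acid based control diet (CD) or the same diet without tryptophan (TDD). Each diet was given to specific pathogen free (SPF) mice with their own microbiota and to mice whose microbiota had been depleted with a cocktail (ABX) of ampicillin, vancomycin, gentamicin, metronidazole and neomycin. This gave 4 groups of 5 mice (CD, TDD, CD+ABX and TDD+ABX), in which a mouse is 1 sample, and the question put to the data is how the diet and the microbiota set the level of these genes. The labels do not say which mice shared a cage or litter.

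Treg cells restrain other immune cells, and the gut wall is rich in them because it meets food and microbial antigens all the time. Foxp3 is the transcription factor that defines the lineage, Ikzf2 encodes Helios and Gata3 marks a tissue-repair type of Treg cell, whereas Il2ra (CD25) lets the cell take up interleukin 2. Ctla4, Tigit and Icos are co-receptors, Tnfrsf18 (GITR) and Tnfrsf4 (OX40) are receptors of the tumour necrosis factor family, and Il10 is a suppressive cytokine. Apart from Foxp3, which is nearly confined to Treg cells in mice, each of them is also made by other cells: Il2ra by activated T cells, B cells and innate lymphoid cells, Ctla4, Icos and Tnfrsf4 by activated and follicular helper T cells, Tigit by NK and CD8 T cells, Gata3 by Th2 cells and group 2 innate lymphoid cells, and Il10 by macrophages and B cells.

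Total counts ran from 36.7 to 58.7 M per mouse, with a median of 47.6 M. Levels are given as CPM, the counts of a gene per M counts of the library, after TMM scaling. The epithelial adhesion gene Epcam lay at 1340 to 2360 CPM and the leukocyte gene Ptprc (CD45) at 27.2 to 91.0 CPM. The T cell receptor subunit Cd3e lay at 1.97 to 15.9 CPM. Levels of single genes do not give the shares of cell types in a piece. None of 15 T cell markers was at 0 in any mouse. The mice differed in B cell and follicle marker RNA, and how much lymphoid tissue each piece held was not tested. The summed level of 13 B cell and follicle markers was 158 to 301 CPM in 7 mice (CD mice 2 and 3, TDD mice 2 to 5 and TDD+ABX mouse 5) and 26.2 to 79.4 CPM in the other 13 mice.

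All 10 genes were scarce. Of them, 9 reached 0.5 CPM in at least 1 mouse and were tested, together with 16306 genes in all, and Il10, which peaked at 0.231 CPM, was not. Foxp3 passed this filter through 6 mice, of which 4 were TDD mice, 1 was a CD mouse and 1 a TDD+ABX mouse, and Ctla4 passed through 9 mice, none of them in the CD+ABX group. Levels were compared between genes per length, as TPM, which also divides by transcript length. Pooled over the 20 mice of all groups, Tnfrsf4 was highest, at 1.84 ± 0.448 TPM (SD, n = 20), and exceeded Tigit (1.38 ± 0.664 TPM) in 17 of 20 mice, although in CD mice the mean of Tigit was the higher (1.95 against 1.72 TPM, above in 2 of 5 mice). Tigit and Tnfrsf18 (1.21 ± 0.297 TPM) could not be ordered, since Tigit was the higher in 11 of 20 mice, but Tnfrsf18 lay above Gata3 (0.655 ± 0.239 TPM) in 19. Ctla4 (0.463 ± 0.298 TPM), Il2ra (0.428 ± 0.181 TPM), Icos (0.413 ± 0.242 TPM) and Ikzf2 (0.293 ± 0.0777 TPM) followed with overlapping spreads. Ikzf2 lay above Foxp3 (0.131 ± 0.0916 TPM) in 20 of 20 mice, and Foxp3 above Il10 (0.0936 ± 0.073 TPM) in only 12, with a mean below that of Il10 in CD mice (0.105 against 0.165 TPM) and above it in TDD mice (0.238 against 0.0605 TPM). Foxp3, the lineage gene, was therefore among the rarest transcripts of the set, with 342 counts over all mice, against 1775 for Ikzf2 and 1287 for Il2ra.

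Members lay on 5 chromosomes of GRCm38. Foxp3 spans chrX:7573644-7595245 on the plus strand and shares its locus with the non-coding gene Flicr, and how reads there were divided between both was not tested. Ctla4 (chr1:60887000-60915832) and Icos (chr1:60977927-61000320) are neighbours 62095 bases apart, and Tnfrsf4 (chr4:156013843-156016612) and Tnfrsf18 (chr4:156026164-156028895) lie 9552 bases apart. Ikzf2 (chr1:69531214-69687245) and Il10 (chr1:131019845-131024974) are further along chromosome 1. Il2ra (chr2:11642807-11693193) and Gata3 (chr2:9857078-9890034) share chromosome 2, and Tigit is at chr16:43648867-43664146.

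RefSeq promoters (GRCm38.p6) were at hand for 7 of the 10 genes, namely Foxp3, Il2ra, Ctla4, Tigit, Gata3, Tnfrsf4 and Tnfrsf18. The 250 bases before the transcription start are shown for the 4 of them that were called lower with antibiotics on either diet, since the results turn on these. The windows are chrX:7579426-7579675 (plus strand) for the more upstream of 2 Foxp3 starts, which overlaps an exon of Flicr, chr2:11642542-11642791 (plus) for Il2ra, chr1:60908775-60909024 (plus) for Ctla4 and chr16:43664185-43664434 (minus) for Tigit, the last 3 outside any GENCODE exon. Each reads 5′ to 3′ on the gene's strand, with capitals at letter matches on either strand. The motifs matched were the NFAT core, whose letters are GGAAA, and the TATA box. The latter was searched as TATAAA.
Foxp3: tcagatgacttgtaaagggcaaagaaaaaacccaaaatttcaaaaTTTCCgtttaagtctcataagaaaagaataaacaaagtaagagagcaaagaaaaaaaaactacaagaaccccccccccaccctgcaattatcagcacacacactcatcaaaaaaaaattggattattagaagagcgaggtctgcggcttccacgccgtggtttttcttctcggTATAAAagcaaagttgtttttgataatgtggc
Il2ra: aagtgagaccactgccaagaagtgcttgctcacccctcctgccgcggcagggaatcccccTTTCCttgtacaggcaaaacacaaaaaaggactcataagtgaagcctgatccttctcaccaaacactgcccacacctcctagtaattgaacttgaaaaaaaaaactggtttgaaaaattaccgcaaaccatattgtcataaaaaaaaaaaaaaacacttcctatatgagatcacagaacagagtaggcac
Ctla4: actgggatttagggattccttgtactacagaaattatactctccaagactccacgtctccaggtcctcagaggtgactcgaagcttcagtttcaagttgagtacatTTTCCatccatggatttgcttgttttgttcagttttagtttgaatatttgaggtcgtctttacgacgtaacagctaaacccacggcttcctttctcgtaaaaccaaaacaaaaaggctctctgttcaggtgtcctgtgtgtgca
Tigit: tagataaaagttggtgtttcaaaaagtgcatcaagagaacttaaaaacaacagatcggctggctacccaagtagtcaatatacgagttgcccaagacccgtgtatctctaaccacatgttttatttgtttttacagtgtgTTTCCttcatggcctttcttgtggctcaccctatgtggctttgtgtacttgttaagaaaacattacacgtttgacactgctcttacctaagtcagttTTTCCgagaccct
The NFAT core was found once each in the Foxp3, Il2ra and Ctla4 windows and 2 times in the Tigit window, but 55.6% of 32841 promoter windows of this length hold it. A TATA box stood in the Foxp3 window, 32 to 27 bases before the start, and in 12.4% of all windows. No window of the 4 held the letters TGANTCA (AP-1, in 6.75% of all windows), TTCNNNGAA (STAT, 7.02%) or TGTTTAC (forkhead, 3.17%), and no match overlapped another. These are letter matches and say nothing of binding.

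Fold changes came from 1 edgeR quasi-likelihood fit over all genes and the 4 groups, and q is the p-value adjusted by Benjamini-Hochberg over 16306 genes. A gene was called at q under 0.05 and a change of at least 2-fold. In SPF mice no member was called for TDD feeding against CD, where 1.84% of all genes tested were called (0 also with DESeq2 and limma-voom, and 3 members, Foxp3, Il2ra and Tnfrsf4, under an unadjusted p of 0.05). Il2ra passed q alone, as did 6.7% of all genes in the upward direction. The paper names Foxp3 and Il2ra among the genes that the diet induced in SPF mice, at the same nominal limits. Its methods do not name the test behind those calls, and why the outcome differs here was not tested. In ABX-treated mice the diet called no member either (background 0.331%), with none under an unadjusted p of 0.05 and none by DESeq2 or limma-voom. Antibiotics lowered 3 of the 9 members on CD, namely Ctla4, Icos and Tigit, against a background of 1.69% of genes called lower, and 3 on TDD, namely Ctla4, Foxp3 and Il2ra, against 1.29%. With q alone, 4 members were lower on CD (background 7.43%) and 5 on TDD (background 8.3%). In whole tissue, fewer cells of a type and less RNA per cell cannot be told apart, and this holds for every value below. The diet and the antibiotic comparisons share mice (the TDD mice stand in both the diet contrast in SPF mice and the antibiotic contrast on TDD), so they are not separate evidence.

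**Figure D1:**
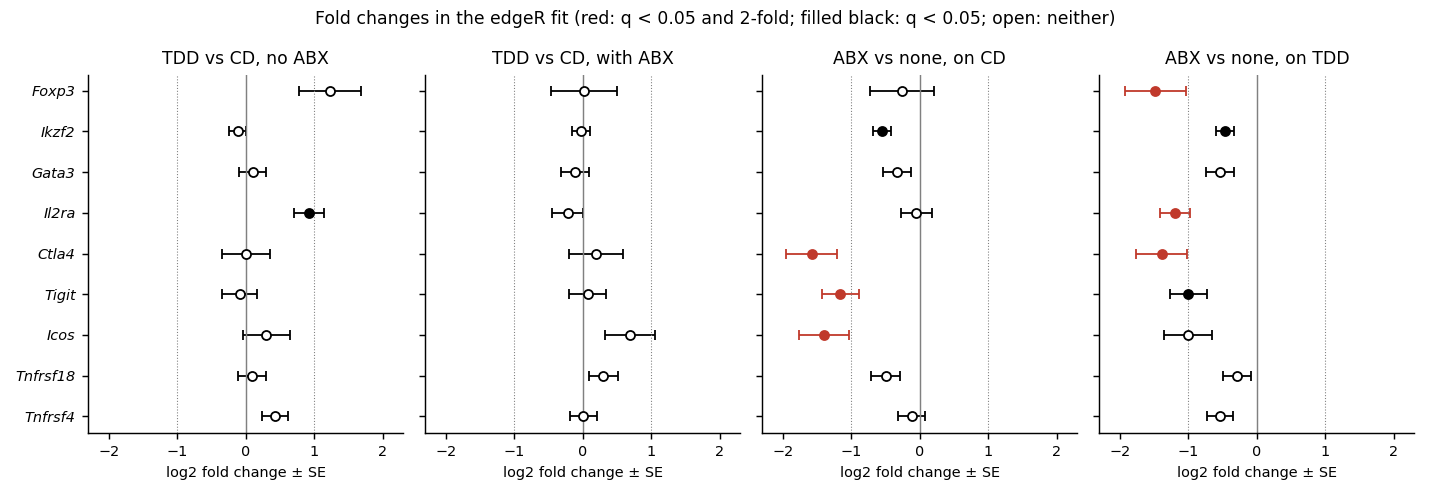
Log2 fold change ± SE from edgeR for the 9 members tested, 1 panel per comparison, with dotted lines at a 2-fold change. Red points passed q under 0.05 and 2-fold, filled black points q alone. With antibiotics all 9 point estimates were below 0 on both diets (6 on CD and 1 on TDD were above 0 when libraries were scaled to T cell markers, which moved the median of all genes by 0.89 and 0.43), and the diet alone gave no red point.

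Foxp3 was high in most TDD mice and low elsewhere. CD mice 1 to 5 held 0.248, 0.326, 0.558, 0.161 and 0.168 CPM, and TDD mice 0.151, 0.779, 0.683, 1.05 and 0.816 CPM. CD+ABX mice held 0.287, 0.168, 0.307, 0.253 and 0.207 CPM, and TDD+ABX mice 0.124, 0.22, 0.248, 0.139 and 0.526 CPM. TDD mice 2 to 5 stood above all other mice, whereas TDD mouse 1 had 6 counts and lay among the lowest of all. The same 4 TDD mice, but not mouse 1, were among the 7 mice rich in B cell and follicle RNA. The difference between diets in SPF mice was 2.35-fold (log2 fold change 1.23, SE 0.446, edgeR q = 0.0697) and did not pass. Over the 20 fits that left out a mouse the log2 fold change was 1.05 to 1.62 and q up to 0.162, and 2 of them gained the call, without TDD mouse 1 (1.48, q = 0.0146) and without CD mouse 3 (1.62, q = 0.0312). With ABX the diet difference was 0.02 (95% interval -0.92 to 0.96, q = 0.992). Antibiotics on TDD lowered Foxp3 2.78-fold (log2 fold change -1.48, SE 0.451, q = 0.0323), with overlapping groups, and on CD the value was -0.26 (q = 0.792). The call on TDD was lost on leaving out any 1 of 8 mice of the 2 groups, all but TDD mouse 1 and TDD+ABX mouse 5, with q up to 0.089. The interaction of diet and antibiotics, which asks whether the diet difference itself differed, was -1.21 on the log2 scale (edgeR q = 0.615).

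**Figure D2:**
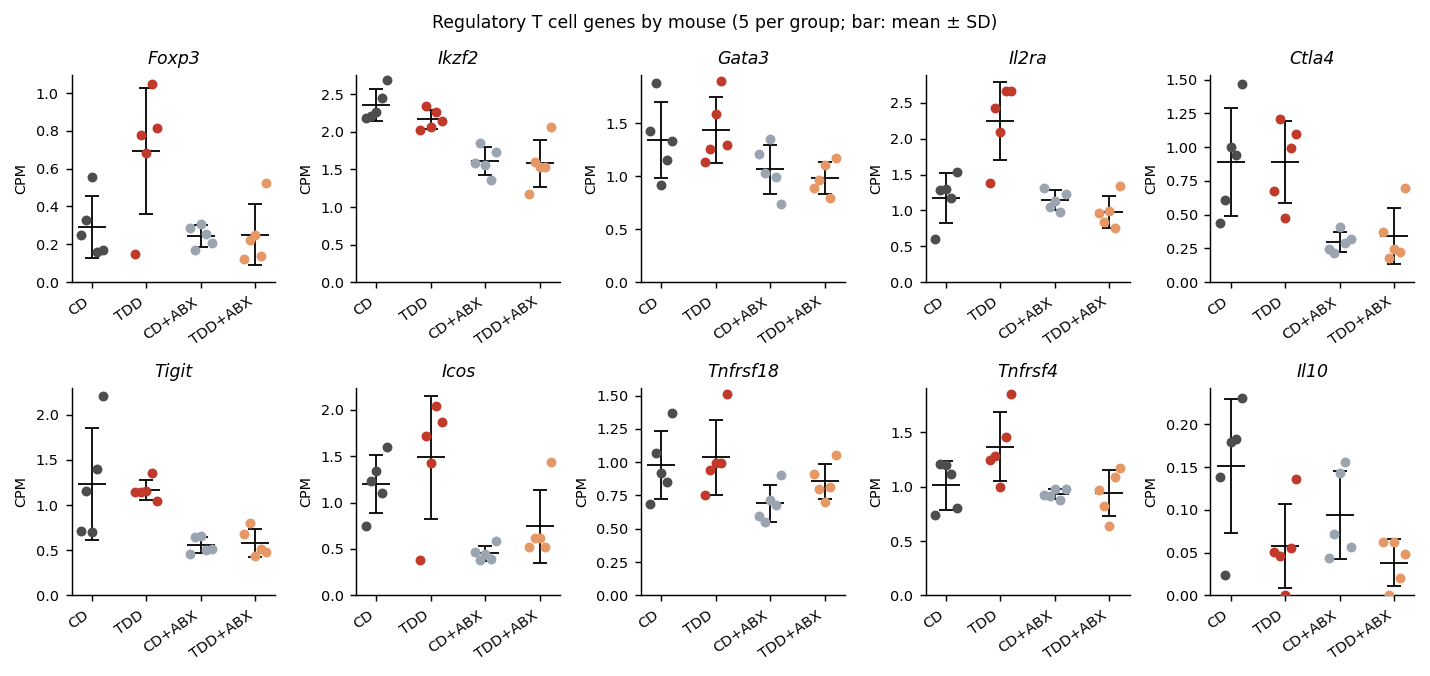
CPM of each of the 10 genes (vertical axes, from 0) in 5 mice of each group, 1 point per mouse, with the mean ± SD as black bars. Il2ra in 4 of 5 TDD mice lay above every mouse of the other groups. Ctla4, Tigit and Icos had lower means in both ABX groups than without antibiotics on the same diet. In TDD+ABX mouse 5, Ctla4 (0.694 CPM) lay within the range of TDD mice, and Icos (1.44 CPM) stood above the rest of its group. TDD mouse 1 was low in Icos (0.376 CPM), so that every TDD+ABX mouse lay within the TDD range of Icos.

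Il2ra, the high-affinity subunit of the interleukin 2 receptor, was likewise highest in TDD mice. CD mice held 0.606, 1.28, 1.3, 1.17 and 1.54 CPM, and TDD mice 1.38, 2.43, 2.09, 2.67 and 2.67 CPM. With ABX the values were 1.32, 1.05, 1.13, 0.973 and 1.23 CPM on CD and 0.971, 0.84, 0.992, 0.756 and 1.34 CPM on TDD. Only TDD mouse 1 overlapped the CD mice. TDD feeding raised Il2ra 1.9-fold in SPF mice (log2 fold change 0.93, SE 0.219, edgeR q = 0.00787), just short of the 2-fold limit, which it passed without CD mouse 5 (1.03) or TDD mouse 1 (1.06). In ABX-treated mice the value was -0.22 (95% interval -0.66 to 0.22, q = 0.695). Antibiotics lowered Il2ra 2.3-fold on TDD, where the groups did not overlap (log2 fold change -1.2, SE 0.221, q = 0.00228), and all 20 fits that left out a mouse kept the call. On CD the value was -0.05 (95% interval -0.49 to 0.38). The interaction was -1.15 (95% interval -1.76 to -0.53) and missed the adjusted threshold at edgeR q = 0.187. Interaction calls were rare, at 0.0245% of all genes tested, and none was a member (0 by DESeq2 and limma-voom, and 1 member, Il2ra, under an unadjusted p of 0.05).

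Ctla4, the inhibitory receptor that competes for the ligands of CD28, was lower in both ABX groups. Its level was 0.441, 0.605, 0.997, 0.94 and 1.47 CPM in CD mice and 0.677, 1.21, 0.476, 0.99 and 1.1 CPM in TDD mice, with group means of 0.891 and 0.893 CPM. In CD+ABX mice it was 0.242, 0.216, 0.409, 0.292 and 0.32 CPM, below every CD mouse. TDD+ABX mice held 0.372, 0.18, 0.248, 0.219 and 0.694 CPM, and only mouse 5 reached into the TDD range. Not all of these gene counts were found on the Ctla4 transcripts. CD+ABX mouse 2 had 9 gene counts but 0.0 TPM, and TDD+ABX mouse 1 had 18 gene counts but 0.13 TPM. Antibiotics lowered Ctla4 3.0-fold on CD (log2 fold change -1.58, SE 0.378, edgeR q = 0.00941) and 2.62-fold on TDD (-1.39, SE 0.374, q = 0.0181). Without TDD+ABX mouse 2 or 3 the latter just missed, at q = 0.0516 each. The 95% interval of the diet difference ran from -0.69 to 0.69 in SPF mice, wide enough for a change of either sign.

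Icos, the costimulatory receptor that sits beside Ctla4, held 0.744, 1.23, 1.34, 1.1 and 1.6 CPM in CD mice and 0.463, 0.384, 0.45, 0.389 and 0.584 CPM in CD+ABX mice, with no overlap. Antibiotics thus lowered it 2.64-fold on CD (log2 fold change -1.4, SE 0.365, edgeR q = 0.0162). TDD mice held 0.376, 1.72, 1.43, 2.04 and 1.87 CPM and TDD+ABX mice 0.516, 0.62, 0.62, 0.517 and 1.44 CPM. Mouse 1 of the first group and mouse 5 of the second lay apart from their groups and crossed over. The comparison came to -1.01 (q = 0.0569) with all mice, -1.25 (q = 0.00599) without TDD mouse 1 and -1.35 (q = 0.0109) without TDD+ABX mouse 5. The diet differences were 0.3 (q = 0.614) in SPF and 0.69 (q = 0.398) in ABX-treated mice.

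Tigit, an inhibitory receptor for the adhesion molecule CD155, was steady among TDD mice at 1.15, 1.15, 1.16, 1.35 and 1.04 CPM and spread widely among CD mice at 0.716, 1.16, 0.698, 1.4 and 2.21 CPM. In CD+ABX mice it was 0.463, 0.647, 0.655, 0.506 and 0.509 CPM, and in TDD+ABX mice 0.682, 0.8, 0.434, 0.517 and 0.479 CPM. It was the one member whose ABX-treated mice lay below all mice without antibiotics on both diets. The change was 2.23-fold on CD (log2 fold change -1.16, SE 0.268, edgeR q = 0.00804) and on TDD it ended at the 2-fold limit (-1.0, SE 0.267, q = 0.0178), so that it was not called there. Without CD mouse 5, the highest of all, the change on CD was -0.84 (q = 0.0265). Groups that did not overlap, the ABX-treated mice being lower, were seen for 4 members on CD (Ctla4, Icos, Ikzf2 and Tigit) against 5.88% of all genes, and for 2 on TDD (Il2ra and Tigit) against 5.05%.

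Among the other transcription factors, Ikzf2 was the least variable member. It lay at 2.18 to 2.69 CPM in CD mice, 2.03 to 2.34 in TDD mice, 1.36 to 1.85 in CD+ABX mice and 1.18 to 2.06 in TDD+ABX mice. Antibiotics lowered it 1.46-fold on CD (log2 fold change -0.55, SE 0.129, edgeR q = 0.00929) and 1.37-fold on TDD (-0.46, SE 0.13, q = 0.0237), both under the 2-fold limit, and on CD the value was 0.38 when libraries were scaled to T cell markers, which moved the median of all genes by 0.89. The diet gave -0.12 (95% interval -0.38 to 0.13) in SPF mice, the narrowest interval of the set. Gata3 ranged over 0.917 to 1.88 CPM in CD mice, 1.13 to 1.9 in TDD mice, 0.735 to 1.35 in CD+ABX mice and 0.796 to 1.17 in TDD+ABX mice. Its diet differences were 0.1 (q = 0.799) in SPF mice and -0.12 (q = 0.843) with ABX, and antibiotics gave -0.33 on CD (q = 0.323) and -0.54 on TDD (q = 0.0739). Gata3 in this tissue cannot be assigned to Treg cells, as Il1rl1, a receptor that group 2 innate lymphoid cells also carry, stood at 1.96 to 29.7 CPM and was called higher with antibiotics on TDD (log2 fold change 1.39, q = 0.0349).

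The tumour necrosis factor receptors passed no test. Tnfrsf18 lay at 0.689 to 1.37 CPM in CD mice, 0.753 to 1.51 in TDD mice, 0.551 to 0.905 in CD+ABX mice and 0.703 to 1.05 in TDD+ABX mice, with no comparison past q (antibiotics on CD, -0.5, edgeR q = 0.125). Tnfrsf4 lay at 0.744 to 1.21, 0.994 to 1.85, 0.876 to 0.982 and 0.641 to 1.17 CPM in the same order of groups. Its diet difference in SPF mice was 0.43 (q = 0.142) and its antibiotic difference on TDD -0.54 (q = 0.0583). Not all of these reads were assigned to coding transcripts. A non-coding processed transcript took 29.2% of the Tnfrsf4 counts in CD, 21.2% in TDD, 24.4% in CD+ABX and 47.5% in TDD+ABX mice. A second one took a further 8.8%, 11.2%, 14.3% and 7.6%. A retained-intron transcript took 7.6%, 13.2%, 10.3% and 22.8% of the Tnfrsf18 counts, and processed transcripts took smaller shares. These shares are estimated splits of few counts, and their differences between groups were not tested. For comparison, 1 coding transcript carried 99.3% of Il2ra, 98.9% of Icos and 95.7% of Ctla4 counts, and Foxp3 counts were divided over 4 coding transcripts.

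Il10 was at the edge of detection. CD mice had 5, 1, 9, 8 and 11 counts and TDD mice 2, 2, 0, 2 and 8 counts. CD+ABX mice had 2, 3, 7, 8 and 3 counts and TDD+ABX mice 3, 0, 3, 1 and 2 counts, and a count of 0 allows up to 3 counts. In a fit without the filter the difference between TDD and CD was -1.32 in SPF mice (SE 0.647, q = 0.245, edgeR) and -1.27 in ABX-treated mice (q = 0.549), neither of which passed. Il2, the ligand of the Il2ra receptor, had at most 4 counts in any mouse.

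The levels of some members varied with the lymphoid marker RNA of the piece, each in its own way. As a description over 20 mice, log2(CPM + 1) of a member was set against log2 of the summed marker CPM, both as deviations from group means. Foxp3 correlated at r = 0.91 with the 13 summed B cell and follicle markers and at 0.38 with 15 summed T cell markers. The 7 mice with the most Foxp3 were the 7 with the most B cell and follicle RNA: the lowest of them held 0.326 CPM of Foxp3 and the highest other mouse 0.307 CPM. Icos correlated with both lists (0.82 and 0.76), as did Il2ra (0.72 and 0.74). Ctla4 (0.36 and 0.73) and Tigit (-0.16 and 0.66) went with the T cell markers, as did Tnfrsf18 (0.42 and 0.7) and Ikzf2 (0.29 and 0.59). Correlations with both lists were weaker for Tnfrsf4 (0.44 and 0.19), Gata3 (0.36 and 0.25) and Il10 (-0.08 and 0.43). All points share library, depth and tissue piece. The share of Foxp3 and B cell RNA that a lymphoid follicle in the piece could bring was not tested.

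**Figure D3:**
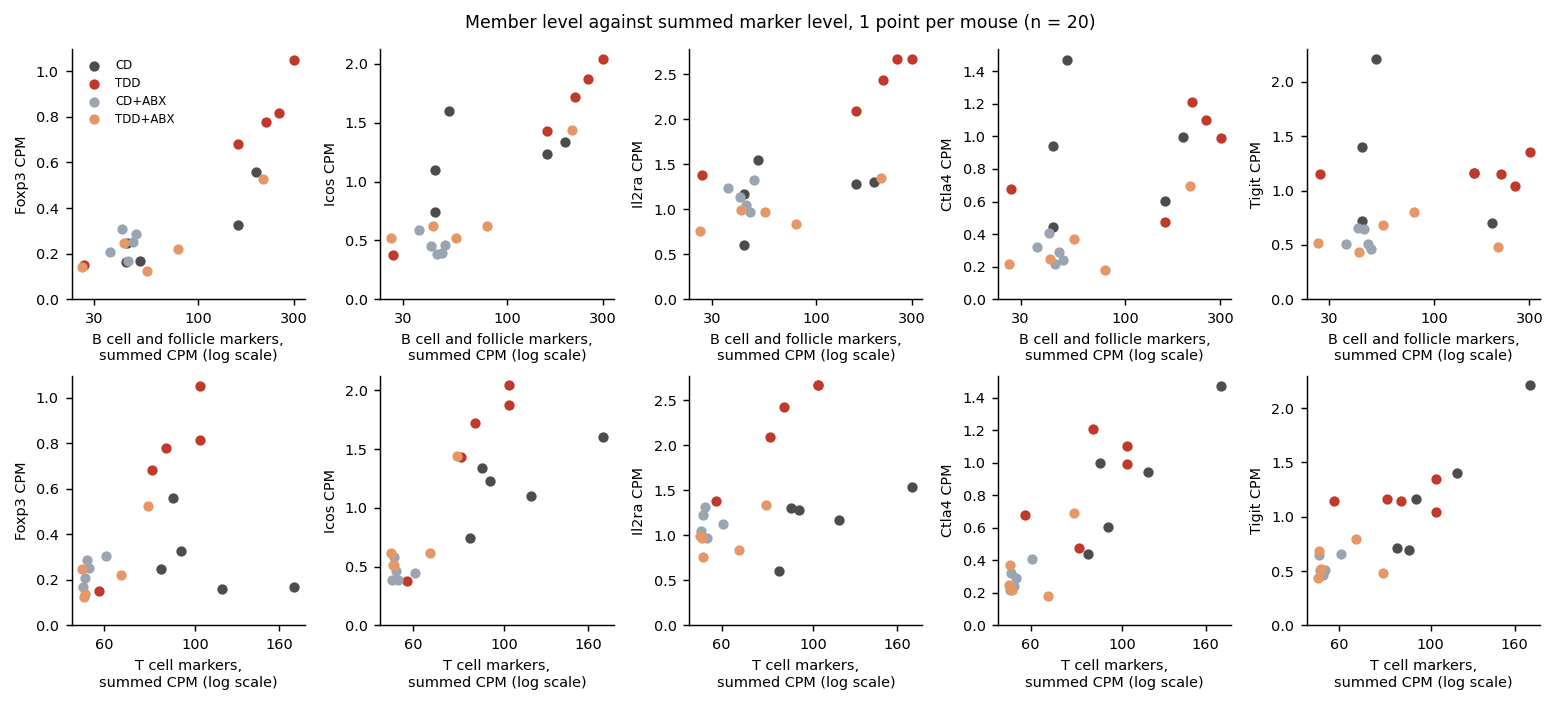
CPM of 5 members (vertical axes) against the summed CPM of 13 B cell and follicle markers (upper row) and of 15 T cell markers (lower row, both on log scales), 1 point per mouse. Foxp3 exceeded 0.307 CPM only in the 7 mice with at least 158 CPM of B cell and follicle RNA, while Tigit and Ctla4 spread along the T cell axis.

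B cell and follicle markers were 43.5 to 195 CPM in CD mice, 26.9 to 301 in TDD mice, 36.3 to 48.7 in CD+ABX mice and 26.2 to 210 in TDD+ABX mice, with none of 13 markers called in any comparison. All 13 had point estimates above 0 for the diet, with a median log2 fold change of 1.21 (SPF mice) or 2.23 (with ABX), whereas they lay below 0 for antibiotics, with a median of -2.36 on CD and -1.58 on TDD. TDD mouse 1 had the lowest level without antibiotics, and TDD+ABX mouse 5 the highest with them. When the summed level was entered as a covariate, an alternative chosen after the data were seen, the diet difference of Foxp3 in SPF mice was 0.55 (q = 0.169, edgeR) and its antibiotic difference on TDD -0.57 (q = 0.171), while that on CD turned to 0.47 (q = 0.279). Il2ra still passed q for the diet in SPF mice (0.69, q = 0.0213) and for antibiotics on TDD (-0.9, q = 0.00661), below 2-fold in both. Ctla4, Icos and Tigit were still called lower with antibiotics on CD, at -1.41, -1.01 and -1.21. On TDD Ctla4 lost its call (-1.16, q = 0.0514) and Tigit gained one (-1.09, q = 0.0236).

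T cell markers summed to 82.8 to 174 CPM in CD mice, 58.2 to 103 in TDD mice, 53.5 to 60.6 in CD+ABX mice and 53.1 to 76.7 in TDD+ABX mice. None of 15 was called for the diet, with point estimates below 0 for 14 of 15 in SPF mice (median log2 fold change -0.49). In ABX-treated mice 14 of 15 lay above 0 for the diet (median 0.34). Antibiotics lowered 12 of 15 on CD, led by Cd5 (log2 fold change -2.69), Cd6 (-2.5) and Themis (-2.12), and 5 of 15 on TDD. In the 9 members, medians of -0.5 on CD and -1.0 on TDD compared with T cell marker medians of -1.79 and -0.97, and with 0.0 and -0.03 over all genes. Members were therefore also set against T cell RNA, by scaling each library to its 15 summed T cell markers. This scaling itself moved the median of all genes by 0.34 for the diet in SPF mice, 0.89 for antibiotics on CD, 0.43 for antibiotics on TDD and -0.44 for the interaction, and fold changes read relative to those shifts.

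Per T cell marker, Il2ra was 2.38-fold higher with the diet in SPF mice (log2 difference 1.25, edgeR q = 0.00317) and called, as were 2.01% of all genes in that direction. Here too the scaling moved the median of all genes, by 0.34, and with TMM scaling Il2ra was at 0.93 and not called. Its interaction was also called (-1.6, q = 0.0419), against 0.184% of all genes called lower, but the same scaling moved the median of all genes by -0.44 in this contrast, and with TMM scaling the interaction was -1.15 and not called. With antibiotics on CD no member was called, although 4444 of 16306 genes were called in either direction under this scaling. Ctla4 stood at -0.58 (q = 0.114), Icos at -0.45 (q = 0.178) and Tigit at -0.12 (q = 0.697). Il2ra was 0.91 higher (q = 0.00162), close to the shift of all genes. With antibiotics on TDD no member was called either, where 486 of 16306 genes were. Ctla4 (-0.93, q = 0.0455) and Il2ra (-0.69, q = 0.0364) passed q there below 2-fold. Foxp3 was 1.39 higher for the diet (q = 0.0716) and 0.97 lower with antibiotics on TDD (q = 0.0923), neither past the threshold.

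**Figure D4:**
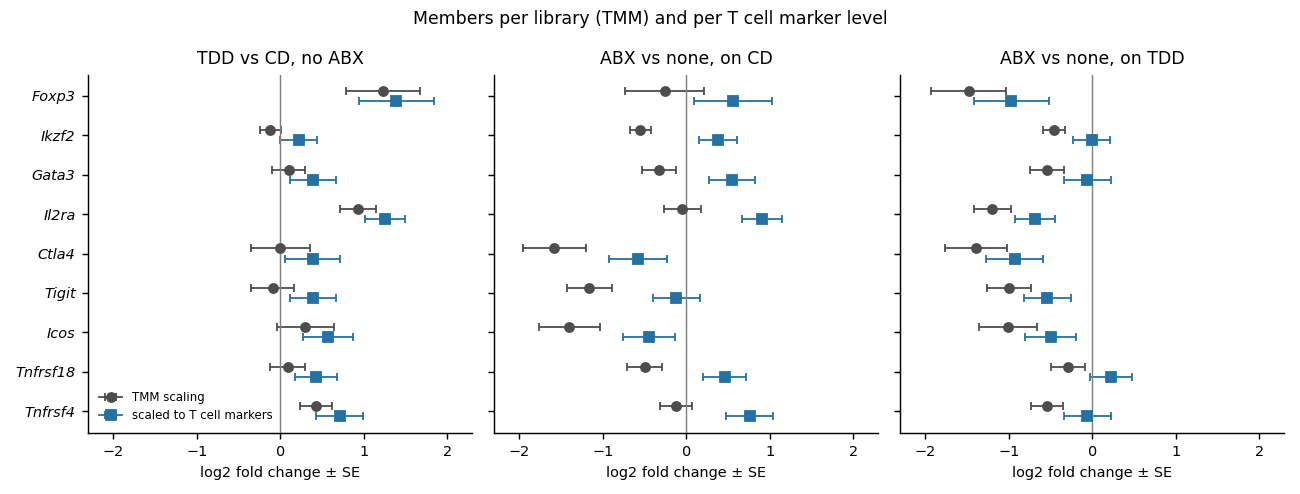
Log2 fold change ± SE of the 9 members tested with TMM scaling (grey circles) and with each library scaled to its summed T cell markers (blue squares), for the diet in SPF mice and for antibiotics on each diet. Every blue square lies to the right of its grey circle, and Ctla4, Tigit and Icos on CD move from -1.58, -1.16 and -1.4 to -0.58, -0.12 and -0.45. The scaling itself moved the median of all genes by 0.34 for the diet in SPF mice. For antibiotics it moved that median by 0.89 on CD and 0.43 on TDD, so the shift to the right is not particular to the members.

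Other T cell types were read from markers. Of 8 CD4 and CD8 T cell markers, 7 were called lower with antibiotics on CD, with Cd8b1 lowest at -4.07 and Cd4 itself at -0.79 (q = 0.00854, below 2-fold), and 1 on TDD, the costimulatory receptor Cd28 (-1.22). The diet in SPF mice lowered 1 of them, Cd8b1 (-2.33). None of 6 naive and central memory markers was called, with a median of 0.68 for the diet in SPF mice and -0.88 for antibiotics on TDD. Among follicular helper T cell markers, of which 6 of 7 could be tested, Pdcd1 (-2.6) and Sh2d1a (-1.73) were called lower with antibiotics on CD and Sh2d1a (-1.12) on TDD. All 5 pan-leukocyte markers passed q as lower with antibiotics on both diets, with a median of -1.1 on CD, where 4 also passed 2-fold, and of -0.88 on TDD, where none did. None of 8 myeloid markers, 5 proliferation markers or 4 tested type 17 markers was called in any comparison. With q alone, 3 of 8 myeloid markers were lower with the diet in SPF mice, as were 1261 of 16306 genes. With antibiotics, 4 myeloid markers passed q as lower on CD (background 7.43%) and 3 on TDD (background 8.3%). Among type 17 markers, 1 passed q as higher with the diet in SPF mice (background 6.7%) and in ABX-treated mice (111 of 16306 genes). Of 6 tested ILC2 and Th2 markers only Il1rl1 was called, with antibiotics on TDD, and of 6 epithelial markers only the ileal bile acid binding gene Fabp6, higher with antibiotics on CD (5.14) and on TDD (3.92).

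Genes of the pathways around the members were counted in the same fit, and in ABX-treated mice the diet called none of them. In IL-2 signalling, 1 of 8 tested genes was called, the shared receptor chain Il2rg with antibiotics on TDD (log2 fold change -1.01, q = 0.0219, edgeR), and none for the diet (median 0.12). Among 12 genes of TGF-beta and retinoic acid signalling, which steers Treg differentiation in the gut, only the retinaldehyde dehydrogenase Aldh1a1 was called, higher with antibiotics on TDD (1.46, q = 0.000391). Of 23 regulators and partners of Foxp3, Ikzf3, Ikzf1 and Irf4 were called lower with antibiotics on CD (-1.73, -1.21 and -1.01) and on TDD (-1.33, -1.24 and -1.22), and none with the diet. These 3 factors also act in B cells and other lymphocytes.

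Of 13 tested suppressor molecules, 1 was called, the folate receptor Izumo1r (FR4) that Treg and follicular helper T cells carry, lower with antibiotics on CD (-2.51, q = 0.0339) and on TDD (-2.0, q = 0.0451). In the receptor and response genes of IL-10, 1 of 7 was called, the feedback inhibitor Socs3, higher with TDD in SPF mice (2.03, q = 1.4e-05). Socs3 was also higher with the diet in ABX-treated mice (0.84, edgeR q = 0.0445), below 2-fold. With antibiotics on TDD it was lower (-0.73, edgeR q = 0.023), again below 2-fold. It is induced by many cytokines besides IL-10. Of 9 tested ligands and partners of the members, Cd27, Cd28, Cd226 and Cd96 were called lower with antibiotics on CD (-1.42, -1.35, -1.31 and -1.0) and Cd28 on TDD (-1.22). Cd226 and Cd96 are receptors that share ligands with Tigit. The Icos ligand Icosl, named after its value was seen, passed q for the diet in SPF mice below 2-fold (0.69, q = 0.00636).

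Of 5 genes of the IL-33 axis only its receptor Il1rl1 was called, as given above, and the list's median for the diet in SPF mice was -0.38. Among 12 tested gut homing and chemokine receptor genes, Cxcr3 (-1.07) and Cxcr6 (-1.0) were among those called lower with TDD in SPF mice, the direction opposite to that of Il2ra. With antibiotics on CD, Cxcr3 (-1.67), Cxcr6 (-1.23), Itgb7 (-1.17) and Ccr9 (-1.0) were called lower, and on TDD none was. Ccr9 and the integrin chain Itgb7 direct T cells to the small intestine.

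Likeness to single genes was described over 20 mice by Pearson's r of log2(CPM + 1) as deviations from group means, among 14047 or 14048 genes with a mean of at least 1 CPM. Foxp3 was most like Ripor2 and Ciita (0.95 each), Cd180 and Wdfy4 (0.94 each) and Napsa (0.93), among which Ciita and Cd180 are genes of B cells and other antigen-presenting cells. Il2ra was most like Sept1 and Hcls1 (0.93 each), Cyp4f18 (0.92), Sh3kbp1 and Def6 (0.91 each). Il10, with its few counts, was most like the interferon-induced genes Dhx58 (0.93), Oas1a (0.92), Oas2, Usp18 and Oas1g (0.9 each). Gata3 had no such close match (Ddx59 0.83, Rmi2 and Flt4 0.82, Hnrnpa1 and Mmp28 0.79). Among the members themselves, Il2ra and Icos (0.91) and Foxp3 and Icos (0.83) varied most alike, and Foxp3 and Tigit at -0.29. All of these points share their libraries and tissue pieces.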

How the data were processed

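Ileal poly-A RNA of 20 mice was analysed, 5 in each of 4 groups. Per the labels, the authors assigned reads with kallisto 0.44.0 to the GRCm38 mouse transcriptome and deposited estimated counts per gene as they were, beside per-transcript estimated counts and TPM. How transcripts were summed to genes is not given in the sources used here. The deposited gene counts matched the transcript sums of each member within 0.5 counts in every mouse, except Ctla4, which held up to 9.108 more. In CD+ABX mouse 2 none of its 9 counts was on a matched transcript. Counts were rounded and scaled by TMM, and genes with at least 0.5 CPM in 1 mouse were tested with edgeR 4.0.16 (R 4.3.3), the 4 groups in 1 fit. DESeq2 1.42.0, limma 3.58.1 and the other settings listed with the results were alternatives. Intervals are the estimate ± the normal 95% range of its SE. The fit was tested on simulated counts. TPM were summed per gene over GENCODE M21 transcripts, to which 98.38% of transcripts matched. Depth of 36.7 to 58.7 M counts per mouse left members with 0 to 157 counts each. The p-values measure the spread between these mice, for which no cage or litter is given.

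The 10 members, the 19 other gene lists and the tests were chosen with earlier results of these data known. Members are named in every comparison, and other genes are those called, at most 4 per list and comparison by absolute log2 fold change, plus Cd3e, Cd4, Ptprc, Epcam, Il1rl1 and Il2. Some genes that this rule names are not reported here. For Foxp3, Il2ra, Il10 and Gata3, the 5 most alike genes are named. Promoters came from RefSeq (GRCm38.p6). The authors name the mice left out of their own plots nowhere in the sources used here, so all 20 were kept.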

Additional observations from a re-analysis of the deposited data

Results flagged for a closer look

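Icos stood apart in 1 mouse. TDD+ABX mouse 5 held 1.44 CPM, whereas the other 4 mice of its group held 0.516 to 0.62 CPM, a gap of 0.887 of the group's range against a limit of 0.71. The same mouse had the highest summed B cell and follicle markers of its group, at 210 CPM, and the highest Foxp3, at 0.526 CPM, and their part in the Icos value was not tested. This was 1 flag in 40 groups of 5 checked, where chance flags about 1 in 20.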

How the results depend on the processing

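The number of members called, 0 for the diet in SPF mice, 0 for the diet in ABX-treated mice, 3 for antibiotics on CD, 3 for antibiotics on TDD and 0 for the interaction, stayed within 1.5 times under RLE scaling, a filter of 5 mice, no filter, DESeq2, limma-voom and, for the 4 comparisons without the interaction, fits of the compared groups alone. Among these, RLE scaling, both filters and DESeq2 also kept the direction and call of all 45 member values (9 members in 5 comparisons), and the fits of the groups alone lost only Foxp3 with antibiotics on TDD (-1.46, q = 0.0684). Without the 2-fold limit, which calls more genes by construction, 1 member was called for the diet in SPF mice and 5 for antibiotics on TDD. Scaled to T cell markers, the counts were 1 for the diet in SPF mice (of 397 genes called) and 1 for the interaction (of 34). They were 0 for antibiotics on CD (of 4444 genes called) and 0 on TDD (of 486). With limma on log2(TPM + 1), which shrinks the fold of low genes, 0 members were called for antibiotics on CD and 0 on TDD. With log2(TPM + 0.1) 1 was called on TDD, and with B cell and follicle level as a covariate 1 on TDD, which was Tigit, while Ctla4, Foxp3 and Il2ra lost their calls. Leaving out 1 mouse gave 0 to 2 calls for the diet in SPF mice (2 without TDD mouse 1, 1 without CD mouse 3 or CD mouse 5), 2 to 3 for antibiotics on CD (2 without CD mouse 5) and 1 to 5 for antibiotics on TDD (1 without TDD+ABX mouse 3, 5 without TDD mouse 1). Of 900 member values in these fits, 851 kept direction and call. Where no cause is named for a change, the cause was not tested.

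The values that changed sign, in log2, were these, and none had been called. Scaled to T cell markers, the diet in SPF mice gave Ctla4 0.39, Ikzf2 0.22 and Tigit 0.39, and the diet in ABX-treated mice Foxp3 -0.14, Tnfrsf4 -0.11 and Tigit -0.03. Antibiotics on CD gave Foxp3 0.56, Il2ra 0.91, Ikzf2 0.38, Tnfrsf18 0.46, Tnfrsf4 0.76 and Gata3 0.55, antibiotics on TDD gave Tnfrsf18 0.22, and the interaction Ctla4 -0.34, Ikzf2 -0.39, Tnfrsf18 -0.24, Tigit -0.42 and Icos -0.05. In limma-voom, the diet gave Ctla4 0.01 and Tigit 0.02 in SPF mice and Foxp3 -0.15 and Tnfrsf4 -0.03 in ABX-treated mice. On log2(TPM + 1) it gave Ctla4 0.04 and Ikzf2 0.0 in SPF mice and Ikzf2 0.01 and Tnfrsf4 -0.09 in ABX-treated mice, antibiotics on CD gave Tnfrsf4 0.01 and Gata3 0.03, and the interaction Ctla4 -0.02. On log2(TPM + 0.1) the diet gave Ctla4 0.12 in SPF mice and Foxp3 -0.01, Ikzf2 0.04 and Tnfrsf4 -0.15 in ABX-treated mice, and antibiotics on CD gave Tnfrsf4 0.02. With the B cell and follicle covariate, the diet gave Tnfrsf18 -0.04, Icos -0.29 and Gata3 -0.02 in SPF mice and Foxp3 -0.49 and Tnfrsf4 -0.06 in ABX-treated mice, and antibiotics on CD gave Foxp3 0.47 and Il2ra 0.15.

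Leaving out 1 mouse also turned signs. For the diet in SPF mice Ctla4 ranged from -0.17 to 0.24, Tnfrsf18 from -0.09 to 0.23, Tigit from -0.24 to 0.22 and Gata3 from -0.02 to 0.24. For the diet in ABX-treated mice Foxp3 ranged from -0.4 to 0.2, Ctla4 from -0.21 to 0.35, Ikzf2 from -0.13 to 0.06, Tnfrsf4 from -0.07 to 0.12 and Tigit from -0.07 to 0.17. For antibiotics on CD the ranges were -0.42 to 0.12 for Foxp3 and -0.21 to 0.06 for Il2ra, and for the interaction -0.19 to 0.36 for Ctla4 and -0.13 to 0.31 for Tigit.

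Mice of different groups share replicate numbers, and the labels do not say what a number stands for. The deviations of 30 same-numbered pairs correlated at -0.419 to 0.289 (median -0.0271, against -0.00471 for other numbers). Of 20 mice, 2 were closest to their own number. Such values cannot show whether same-numbered mice shared a cage, litter or day. The replicate block gave 3 calls for antibiotics on CD and 4 on TDD, where it added Tigit (-1.01, q = 0.0298), and the signs of Ctla4 for the diet in SPF mice (0.06) and of Foxp3 (-0.05) and Tnfrsf4 (-0.01) for the diet in ABX-treated mice turned.

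Over all genes, the calls of 300 for the diet in SPF mice, 54 for the diet in ABX-treated mice, 375 for antibiotics on CD, 272 for antibiotics on TDD and 4 for the interaction became, in that order, 397, 28, 4444, 486 and 34 scaled to T cell markers, 2354, 287, 2083, 2525 and 6 without the 2-fold limit, and 140, 25, 131, 98 and 3 on log2(TPM + 1). DESeq2 called 98 for the diet in ABX-treated mice and 51 for the interaction, the replicate block 30 and 0. The interaction gave 0 calls under RLE scaling and in limma-voom, 1 with either filter, 6 on log2(TPM + 0.1) and 9 with the covariate. At 0 to 157 counts per mouse, depth limits what the scarcest members, Foxp3 and Il10, can show.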
